A study of Mus musculus with 22 samples.

Results

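The Shisa family comprises small transmembrane proteins that cross the membrane once and carry a cysteine-rich region at the end facing the lumen or the outside of the cell. The members described here are the genes *Shisa2* to *Shisa9*, taken by symbol from the RNA-seq count table of mouse testes. *Shisa4* was chosen by its higher counts in the knockout, and with it the family, so its values between genotypes are a description and carry no test. Of the 8 symbols, 7 have a row among the 17931 gene symbols of the table, and *Shisa8* has none and was not analysed here.

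RNA was sequenced from whole testes of 3 wild-type (WT) males, which were verified fertile breeders, and of 3 males with a constitutive deletion of *Mlx* (MLXKO), all 7 months old. MLX is a transcription factor of the bHLHLZ class (a DNA-binding helix-loop-helix with a zipper for pairing) that pairs with MondoA, ChREBP or MNT within the extended MYC network. The knockout allele was made by gene targeting in embryonic stem cells and removes the exons that encode the bHLHLZ domain in every cell of the mouse. The WT and MLXKO males were age-matched littermates, and the sample titles number them as pairs 1 to 3. The libraries are called WT1 to WT3 and KO1 to KO3 below. The question is which transcripts differ between testes with and without MLX.

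*Shisa2* and *Shisa3* belong to the branch for which the family is named. Their proteins hold immature Frizzled and FGF receptors in the endoplasmic reticulum, which lowers the response of a cell to Wnt and FGF ligands. *Shisa5*, also called Scotin, encodes a protein of the endoplasmic reticulum and nuclear envelope that p53 induces and that promotes caspase-dependent cell death, and it is also known as an interferon-induced gene. *Shisa6*, *Shisa7*, *Shisa8* and *Shisa9* encode auxiliary proteins of AMPA-type glutamate receptors in neurons, and *Shisa7* protein also binds GABA-A receptors. In the testis, *Shisa6* has been described in undifferentiated spermatogonia, where it dampens Wnt signaling. No settled function is assigned here to *Shisa4*.

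The 6 libraries held between 16674678 and 19742726 counts. The whole-gene count of *Mlx* was 128, 96 and 98 in WT1, WT2 and WT3 against 94, 109 and 102 in KO1, KO2 and KO3, and the difference did not pass the test (log2 fold change (LFC) -0.18, SE 0.14, adjusted p = 0.326). Exons outside the deletion are part of this count, so it does not check the genotype labels. KO1 stood apart from the other MLXKO libraries: the chi-square per degree of freedom between libraries of 1 genotype was 8.22 and 8.20 for the pairs with KO1, against 2.72 for KO2 and KO3 and 2.96 to 4.23 among WT libraries, over 14613 genes. The LFCs of the Shisa genes are therefore given with and without KO1. Markers of elongating spermatids, such as the protamines and transition proteins, were lower in MLXKO for 8 of 8 genes. Markers of Sertoli cells, Leydig cells and macrophages were higher for 8 of 8 tested genes each. Of all genes tested, 20.6% were called lower and 24.8% higher. In whole testes, fewer cells of a type and less RNA per cell cannot be told apart.

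Values are given as counts, which are whole numbers of reads assigned to a gene, and as CPM (counts per 1000000 reads), with library sizes scaled by the trimmed mean of M-values (TMM). Genotypes were compared with the quasi-likelihood test of edgeR, and a gene passed where its p, adjusted by Benjamini-Hochberg over the 14640 genes with enough counts, was under 0.05. Errors are SD with n = 3 per genotype unless named SE. The p-values set the difference against the spread among the 3 males of each genotype, with the littermate pairs left out of the model. All 7 members with a row had enough counts to be tested. Of the 6 other than *Shisa4*, 2 passed as higher (*Shisa5* and *Shisa6*), 2 passed as lower (*Shisa2* and *Shisa3*) and 2 did not pass (*Shisa7* and *Shisa9*). *Shisa6* had enough counts only through its MLXKO libraries, where it was higher, which limits its call. Among all genes tested, 45.4% passed, 24.8% as higher and 20.6% as lower in MLXKO, and the count of 4 of 6 is to be read against that share. *Shisa4*, chosen for its difference, is left out of the next count too. Of the other 6, the WT and MLXKO libraries did not overlap in CPM for 2 that were higher in MLXKO (*Shisa5* and *Shisa6*). Nor did they for 3 that were lower (*Shisa2*, *Shisa3* and *Shisa9*). Of all genes tested, 56.2% did not overlap, 30.3% as higher and 25.9% as lower.

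**Figure D1:**
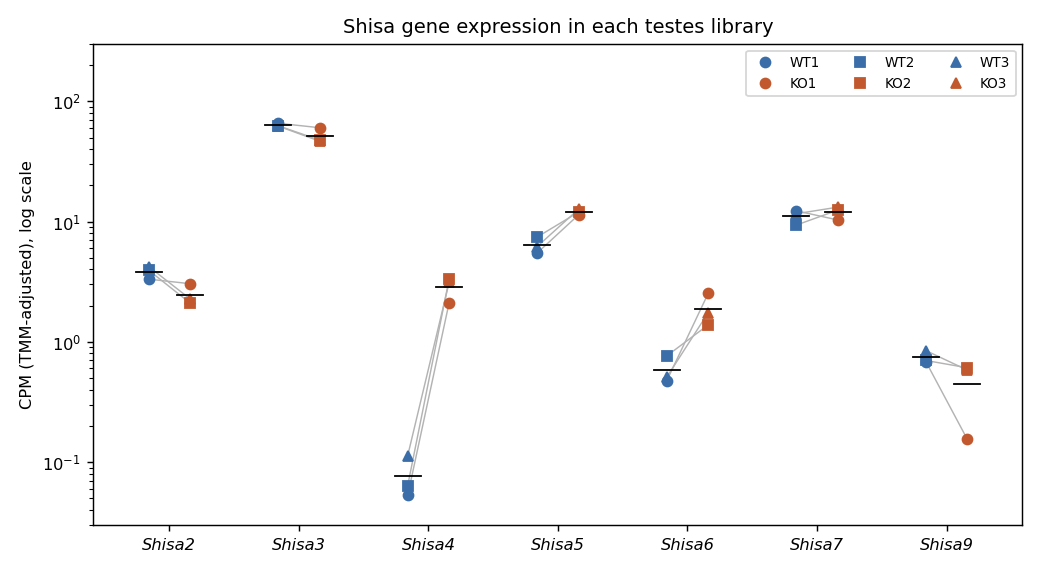
CPM (log axis) of the 7 Shisa genes in the 3 WT and 3 MLXKO testis libraries. Each point is a library, grey lines join libraries with the same pair number, and black bars are means. *Shisa4*, *Shisa5* and *Shisa6* sit higher in all 3 MLXKO libraries, *Shisa2*, *Shisa3* and *Shisa9* sit lower, and the genotypes overlap for *Shisa7*.

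*Shisa4* lies on the minus strand of chromosome 1 at chr1:135371057-135375298 (mm10, RefSeq annotation). It had 1, 1 and 2 counts in WT1, WT2 and WT3 against 41, 60 and 59 in KO1, KO2 and KO3. On the CPM scale the mean was 0.0764 ± 0.0320 in WT and 2.85 ± 0.646 in MLXKO. WT testes were at the detection floor of 3 counts per library, and all 3 MLXKO libraries stood far above it, with KO1 the lowest of them.

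The ratio of summed *Shisa4* counts, 160 in MLXKO against 4 in WT, came to 37.2 after scaling, with an exact 95% interval of 14.3 to 138 that covers counting error only. Since *Shisa4* was chosen for this difference, the interval and the rank given below are a description and no test. Within the pairs the ratio ran from 27.7 to 52.2. The fitted LFC was 5.10, a value that depends on the prior count because WT is at the floor, and it was 5.28 without KO1. Only 2 of the 14640 genes tested had a higher fitted LFC. *Shisa4* passed the filter on low counts through its MLXKO libraries alone, since 0 WT libraries exceeded the cutoff of 0.55 CPM.

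The promoter of *Shisa4*, from 250 bases before to 50 bases after the annotated start, is shown because this gene carries the largest difference of the family. It was read from RefSeq GRCm38.p6 at chr1:135375014-135375313, minus strand. Capitals mark each GGGCGG or its reverse complement CCGCCC, the GC box that SP-type factors can bind:
Shisa4 promoter: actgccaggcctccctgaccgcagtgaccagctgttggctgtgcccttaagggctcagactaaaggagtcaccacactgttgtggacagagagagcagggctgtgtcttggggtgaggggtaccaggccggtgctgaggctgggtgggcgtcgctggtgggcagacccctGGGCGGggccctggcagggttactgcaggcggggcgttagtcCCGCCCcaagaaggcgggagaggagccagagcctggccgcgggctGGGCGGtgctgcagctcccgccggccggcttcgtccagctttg

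The window of *Shisa4* holds 3 such boxes, has 68.3% G and C, and has an observed to expected CpG ratio of 0.47, against medians of 52.7% and 0.38 over all 32851 promoter windows. The nearest protein-coding neighbors of *Shisa4* did not show a difference of its size. *Lmod1*, a leiomodin of smooth muscle that lies 3.0 kb away, had 62, 49 and 51 counts in WT against 81, 89 and 77 in MLXKO (LFC 0.51, adjusted p = 0.0226). That call was lost without WT2 (adjusted p = 0.0592), WT3 (0.0731) or KO2 (0.0929) and in DESeq2 (0.114). *Ipo9*, an importin 7.0 kb away on the other side, had an LFC of -0.06 (adjusted p = 0.317), which turned to 0.08 with library size alone as the scaling.

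*Shisa5*, on the plus strand of chromosome 9 at chr9:109038567-109057792, rose 1.90-fold. It had 104, 117 and 110 counts in WT1, WT2 and WT3 against 221, 217 and 240 in KO1, KO2 and KO3. The mean was 6.38 ± 0.990 CPM in WT and 12.0 ± 0.653 CPM in MLXKO. Each MLXKO library stood above each WT library, and each MLXKO male was higher than its WT littermate. The LFC was 0.92 (SE 0.13, 95% interval 0.65 to 1.20, adjusted p = 0.000219), and it was 0.97 without KO1 (adjusted p = 0.00015).

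RefSeq gives *Shisa5* 5 start sites. The window of the first is shown for comparison with *Shisa4*, since each of these genes has 3 GC boxes there. It was read at chr9:109038317-109038616, plus strand, and capitals again mark GGGCGG:
Shisa5 promoter, first start: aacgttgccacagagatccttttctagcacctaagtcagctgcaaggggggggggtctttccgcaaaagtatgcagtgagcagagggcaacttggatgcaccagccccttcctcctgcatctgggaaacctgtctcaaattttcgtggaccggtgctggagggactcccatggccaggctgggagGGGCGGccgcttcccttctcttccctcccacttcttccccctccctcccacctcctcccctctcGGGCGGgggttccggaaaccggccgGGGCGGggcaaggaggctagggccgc

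Start 5 of *Shisa5* is shown by a stretch of 30 bases at chr9:109054848-109054877, plus strand, because it was the only one of the 10 windows of the family to hold TGACGTCA. This is the cAMP response element, the palindrome read by CREB and by the testis factor CREM, and it is in capitals:
Shisa5, start 5: cttcctgctgcTGACGTCAggaatggggaa

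The element starts 7 bases before that start site, and 1.8% of all promoter windows hold one. The first window of *Shisa5* has 63.3% G and C and a CpG ratio of 0.43. Whether *Shisa5* reads came from start 1 or start 5 was not measured, since the counts are per gene. The letters CACGTG, the E-box that MYC and MLX dimers bind, are in 0 of the 10 windows and in 7.2% of all windows. GGGCGG on either strand is in the first window of 5 of the 6 members with a promoter entry (*Shisa3*, *Shisa4*, *Shisa5*, *Shisa7* and *Shisa8*). Those windows hold 2, 3, 3, 1 and 4 boxes in that order, and *Shisa3* was lower in MLXKO while *Shisa8* has no row. The windows of starts 2 to 5 of *Shisa5* hold 0. Over all 10 windows of the family the box is thus in 5, against 35.7% of all windows. A match or its absence describes these letters in these windows and is no evidence of binding.

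Genes of the pathways tied to *Shisa5* were also counted. Of 20 tested genes on a list of p53 and its targets, 13 passed as higher and 2 as lower, where 24.8% and 20.6% of all genes did, and the median LFC was 0.36 against 0.03 over all genes. Among the 13, *Fas* and *Eda2r* exceeded 0.55 CPM in 0 and 2 WT libraries, against 3 MLXKO libraries each. Both thus passed the filter on low counts through MLXKO, where they were higher, which limits their calls. *Phlda3*, an inhibitor of AKT signaling that p53 induces, rose from 41, 32 and 39 counts in WT to 122, 145 and 118 in MLXKO (LFC 1.68, adjusted p = 3.04e-05). *Btg2*, an antiproliferative p53 target, and *Ccng1*, cyclin G1, had LFCs of 1.47 and 0.81 (adjusted p = 9.46e-05 and 0.000139). *Mdm2*, the ubiquitin ligase of p53, fell by 0.15 on the log2 scale (adjusted p = 0.0252), as did *Pmaip1*, which encodes the BH3-only protein NOXA, by 0.51 (adjusted p = 0.0272).

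*Trp53* itself rose by an LFC of 0.34 (adjusted p = 0.0366), and *Cdkn1a*, the cell cycle inhibitor p21, had an LFC of 0.30 (adjusted p = 0.0842). The count of 15 past the threshold was 9 without WT2 and 9 without KO2, with 0 lower in both. Without WT1 or KO3 it was 10, again with 0 lower, and without KO1 it was 17, with 2 lower. Left out in turn, these 4 libraries moved the adjusted p of *Trp53* to between 0.067 and 0.143, of *Mdm2* to between 0.067 and 0.113 and of *Pmaip1* to between 0.0741 and 0.1, while *Cdkn1a* passed without KO1 (0.0285). With library size alone as the scaling the split was 16 higher and 0 lower.

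Of 18 tested interferon response genes, 11 passed as higher and 0 as lower, where 24.8% and 20.6% of all genes did. Their median LFC was 0.93, and without KO1 10 passed as higher and 0 as lower. Among the 11, *Psmb8* and *Psmb9* exceeded 0.55 CPM in 2 and 1 WT libraries, against 3 MLXKO libraries each. Both thus passed the filter on low counts through MLXKO, where they were higher, which limits their calls. *Psmb8*, an immunoproteasome subunit, had 13, 9 and 12 counts in WT against 86, 46 and 41 in MLXKO (LFC 2.23, adjusted p = 0.000363, or 1.85 without KO1, adjusted p = 0.000221). *Bst2*, the antiviral membrane protein tetherin, had an LFC of 1.05 (adjusted p = 0.000216), and *Ifi35* had 1.30 (adjusted p = 0.000935). Among the MLXKO libraries, *Psmb8* and *Bst2* were highest in KO1. *Ifi35* was highest in KO3, as was *Shisa5*, whose MLXKO libraries ran only from 11.4 to 12.7 CPM. Macrophage markers moved with these genes: their summed level ran from 80.8 to 85.1 CPM in WT and from 169 to 175 CPM in MLXKO. Their part in the results for *Shisa5* and for the interferon genes was not tested.

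**Figure D2:**
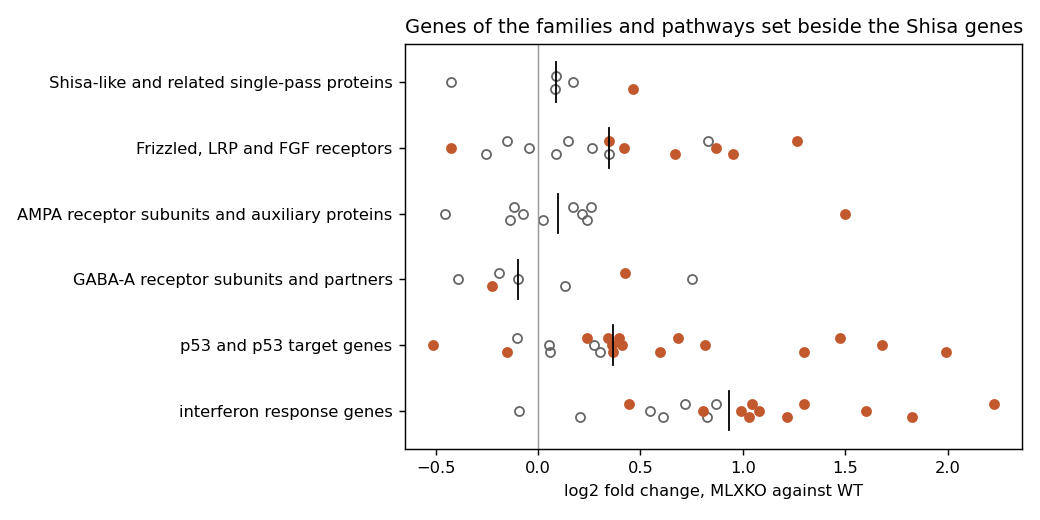
Log2 fold change, MLXKO against WT, of each tested gene on 6 lists set beside the Shisa genes. Filled points have an adjusted p under 0.05 in edgeR, open points do not, and black bars are list medians, from -0.10 for the GABA-A list to 0.93 for the interferon list.

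Both genes of the Frizzled- and FGF-receptor-retaining branch were lower in MLXKO. *Shisa3*, at chr5:67607883-67613987 on the plus strand, was the most abundant member and had 1247, 986 and 1105 counts in WT1, WT2 and WT3 against 1170, 861 and 881 in KO1, KO2 and KO3. Its level was 63.6 ± 1.88 CPM in WT and 51.5 ± 7.65 CPM in MLXKO. The genotypes did not overlap, but KO1, at 60.4 CPM, lay just under the lowest WT library at 62.3 CPM. *Shisa3* fell by 18.9% (LFC -0.30, SE 0.09, 95% interval -0.49 to -0.11, adjusted p = 0.0156).

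Without KO1 the LFC of *Shisa3* was -0.43 (adjusted p = 7.15e-05). The call was lost without WT1 (adjusted p = 0.0516), KO2 (0.0705) or KO3 (0.0717), and with library size alone as the scaling (LFC -0.17, adjusted p = 0.118). The exons of *Shisa3* share 138 bases with exons of *Atp8a1*, a phospholipid flippase gene on the opposite strand. Strand use in counting is not given in the sources used here, so reads from these bases cannot be assigned to either gene. *Atp8a1* did not pass the test (LFC 0.19, adjusted p = 0.16), though it passed with library size alone as the scaling (LFC 0.33, adjusted p = 0.0328). No other member with a row shares exon bases with another annotated gene.

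*Shisa2*, at chr14:59625281-59631660 on the plus strand, had 63, 62 and 75 counts in WT1, WT2 and WT3 against 59, 38 and 43 in KO1, KO2 and KO3. The level was 3.83 ± 0.464 CPM in WT and 2.47 ± 0.501 CPM in MLXKO. KO1, at 3.04 CPM, lay close to WT1 at 3.32 CPM, while KO2 and KO3 lay lower, so the pairs differed in size: the log2 ratio within pairs 1, 2 and 3 was -0.13, -0.91 and -0.89. *Shisa2* fell by 35.1% (LFC -0.62, SE 0.20, 95% interval -1.05 to -0.19, adjusted p = 0.0222).

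Without KO1 the LFC of *Shisa2* was -0.80 (adjusted p = 0.00635). The call was lost without WT2 (adjusted p = 0.065), WT3 (0.0762), KO2 (0.0866) or KO3 (0.079), with library size alone (LFC -0.49, adjusted p = 0.0593), and in DESeq2 with the littermate pair as a block (LFC -0.66, adjusted p = 0.138). In *Shisa2* and *Shisa3* alike, then, KO1 held the smallest departure from WT.

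The receptors that these proteins act on were measured too. Of 15 tested genes for Frizzled, LRP and FGF receptors, 6 passed as higher and 1 as lower, with a median LFC of 0.35, and the 7 called are near the 45.4% of all genes that passed. *Fgfr2* had 78, 64 and 99 counts in WT against 171, 226 and 223 in MLXKO (LFC 1.26, adjusted p = 2e-04). *Fzd7*, *Fzd1* and *Fzd5*, which encode Wnt receptors, had LFCs of 0.87, 0.95 and 0.67 (adjusted p = 0.000414, 0.00108 and 0.00211). *Fgfr3* was the gene that fell, by 0.42 on the log2 scale (adjusted p = 0.0405). Its call was lost without WT2 (adjusted p = 0.0731), WT3 (0.144), KO1 (0.0794) or KO3 (0.141), and the split was 7 higher and 0 lower with library size alone.

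Sertoli and Leydig cell markers moved the same way as the receptor genes: the summed Sertoli level ran from 958 to 1002 CPM in WT and from 1459 to 1775 CPM in MLXKO, and the Leydig level from 865 to 885 CPM and from 1859 to 2446 CPM. Elongating spermatid markers moved with *Shisa2* and *Shisa3*, from 20952 to 21910 CPM in WT to 12327 to 15087 CPM in MLXKO. The part of these cell types in the results was not tested.

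Among the auxiliary proteins of AMPA receptors, 1 of the 3 measured genes passed the test, where 45.4% of all genes did. *Shisa6*, at chr11:66211725-66527984 on the minus strand, rose 3.27-fold from a low level. It had 9, 12 and 9 counts in WT1, WT2 and WT3 against 49, 25 and 33 in KO1, KO2 and KO3, or 0.582 ± 0.158 CPM in WT and 1.89 ± 0.585 CPM in MLXKO. All MLXKO libraries stood above all WT libraries, and KO1 was the highest. The LFC was 1.71 (SE 0.33, 95% interval 0.98 to 2.43, adjusted p = 0.00165), and 1.44 without KO1 (adjusted p = 0.00378).

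*Shisa6* exceeded the cutoff of 0.55 CPM in 1 WT library and in 3 MLXKO libraries. It thus passed the filter on low counts through the genotype in which it was higher, and its p carries that limit. With no filter the edgeR fit gave an LFC of 1.71 (adjusted p = 0.00111). It lies on the same chromosome as *Mlx*, 34.9 Mb away. Of 9 tested markers of undifferentiated spermatogonia, the testis cells in which *Shisa6* is known, 0 passed as higher and 2 as lower (*Eomes* and *Id4*). Over all genes, 24.8% passed as higher and 20.6% as lower. The 2 lower genes differed in the size of the change. *Eomes* fell from 27, 30 and 25 counts in WT to 5, 2 and 2 in MLXKO (LFC -3.24, adjusted p = 0.000102). It passed the filter through its WT libraries alone, which limits its call. *Id4* had an LFC of -0.26 (adjusted p = 0.00701). *Gfra1*, with 209, 229 and 244 counts in WT against 240, 236 and 239 in MLXKO, did not pass (adjusted p = 0.779). The summed level of the markers on this list was 92.8 to 99.9 CPM in WT and 88.5 to 91.4 CPM in MLXKO. *Eomes*, with a mean of 1.58 CPM in WT, added little to this sum.

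*Shisa7*, at chr7:4825551-4844866 on the minus strand, did not pass the test. It had 233, 147 and 206 counts in WT1, WT2 and WT3 against 200, 225 and 249 in KO1, KO2 and KO3, and the genotypes overlapped. The LFC was 0.11 (SE 0.13, adjusted p = 0.527), and its 95% interval of -0.18 to 0.39 allows a difference of either direction. Without KO1 the LFC of *Shisa7* was 0.21 (adjusted p = 0.19).

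*Shisa9*, at chr16:11983593-12270904 on the plus strand, had low counts in both genotypes, and only KO1 was at the floor of 3 counts. It had 13, 11 and 15 counts in WT1, WT2 and WT3 against 3, 11 and 11 in KO1, KO2 and KO3. The CPM values did not overlap, although WT2 and KO2 both had 11 counts, and KO1 stood far below the other libraries. The LFC of *Shisa9* was -0.73 (SE 0.44, adjusted p = 0.188), or -0.32 without KO1 (adjusted p = 0.498), and its 95% interval of -1.69 to 0.23 leaves the difference not detectable at this depth.

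**Figure D3:**
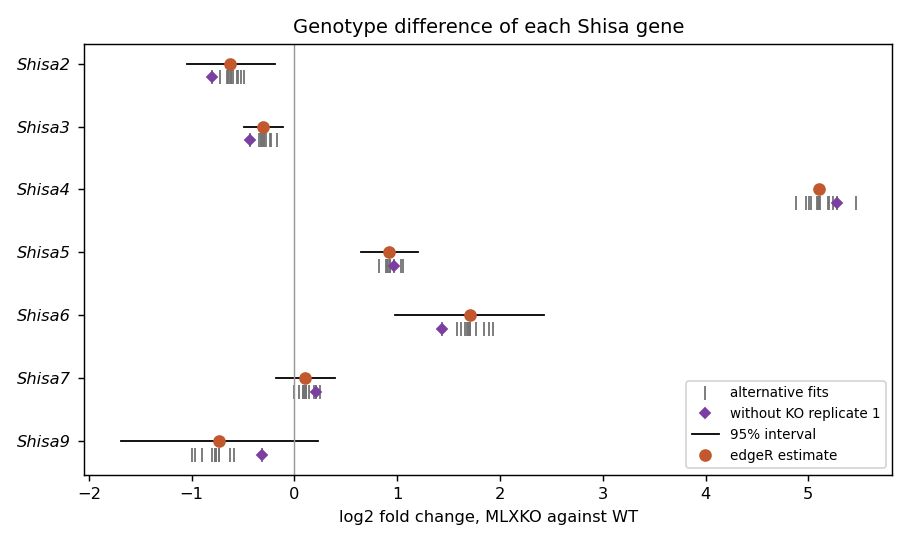
Log2 fold change, MLXKO against WT, of the 7 Shisa genes from edgeR (points) with 95% intervals (lines) for the members other than *Shisa4*. Grey ticks are the alternative fits and purple diamonds the fit without KO1. *Shisa4* is plotted at 5.10 as a description. *Shisa5* and *Shisa6* stay above 0 in every fit, *Shisa2* and *Shisa3* stay below 0, and the intervals of *Shisa7* and *Shisa9* include 0.

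Genes for the receptors that these auxiliary proteins bind were counted as well. Of all genes tested, 45.4% passed, and the counts of both lists below are to be read against that share. Of 10 tested genes for AMPA receptor subunits and auxiliary proteins, 1 passed as higher and 0 as lower. This was *Gria3*, the GluA3 subunit, with 17, 11 and 21 counts in WT against 46, 56 and 47 in MLXKO (LFC 1.50, SE 0.25, adjusted p = 0.000738). Of 7 tested genes for GABA-A receptor subunits and partners, 1 passed as higher and 1 as lower. *Nlgn2*, a neuroligin of inhibitory synapses, had an LFC of 0.43 (adjusted p = 0.0162), and *Gphn*, the scaffold gephyrin, had -0.22 (adjusted p = 0.0423).

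Both GABA-A list calls were lost without WT1 (adjusted p = 0.0643 for *Nlgn2* and 0.186 for *Gphn*), and that of *Gphn* also without WT3 (0.0749), KO2 (0.122) or KO3 (0.117). DESeq2 called 0 of these 7 genes. Neural and Schwann cell markers were summed as a check on nerve tissue in the samples. They ran from 34.2 to 37.5 CPM in WT and from 58.8 to 60.6 CPM in MLXKO. Of the 2 tested, 1 passed as higher (*Tubb3*), where 24.8% of all genes did. *Th*, which marks catecholamine neurons, had at most 3 counts in any library. The part of nerve tissue in the results was not tested.

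Levels were compared between genes as CPM per kilobase of exon (RPKM), computed over the union of exons. In WT the order was *Shisa3* (13.4 ± 0.396 RPKM), *Shisa5* (1.93 ± 0.300), *Shisa7* (1.67 ± 0.232), *Shisa2* (1.04 ± 0.126), *Shisa9* (0.142 ± 0.0170), *Shisa6* (0.0781 ± 0.0212) and *Shisa4* (0.0316 ± 0.0132). *Shisa5* and *Shisa7* overlapped in WT, and no other neighbors in this order did. In MLXKO the order was *Shisa3* (10.8 ± 1.61 RPKM), *Shisa5* (3.65 ± 0.198), *Shisa7* (1.80 ± 0.224), *Shisa4* (1.18 ± 0.267), *Shisa2* (0.674 ± 0.136), *Shisa6* (0.253 ± 0.0785) and *Shisa9* (0.0856 ± 0.0486).

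*Shisa4*, chosen for its difference, thus moved from rank 7 to rank 4 of the 7 genes, and no neighbors in the MLXKO order overlapped. With the longest transcript as the length, *Shisa5* and *Shisa7* no longer overlapped in WT, and *Shisa7* and *Shisa4* overlapped in MLXKO. The summed RPKM of the 7 genes was 18.5, 18.2 and 18.2 in WT1, WT2 and WT3 and 19.8, 17.8 and 17.9 in KO1, KO2 and KO3, so the genotypes overlapped in the family total while its makeup differed.

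Of that sum, *Shisa3* took 74.9, 72.5 and 72.2% in the WT libraries and 64.2, 56.3 and 54.8% in the MLXKO libraries. *Shisa5* took 9.0, 12.4 and 10.4% in WT and 17.5, 20.5 and 21.5% in MLXKO. *Shisa4* took 0.1, 0.1 and 0.3% in WT and 4.4, 7.7 and 7.2% in MLXKO. Each MLXKO library thus had a smaller *Shisa3* share and a larger *Shisa5* share than any WT library, with KO1 nearest to WT. The larger *Shisa4* share follows from the choice of that gene, which also enters the sum behind the other shares.

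**Figure D4:**
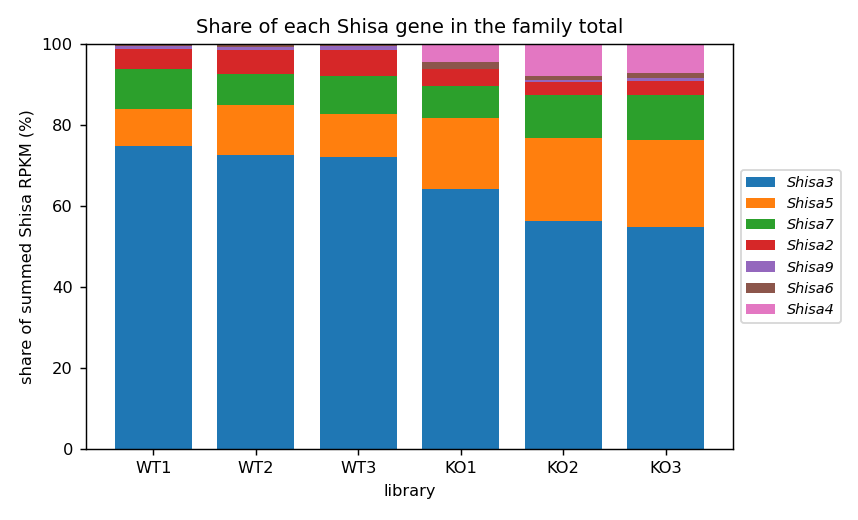
Share of the summed RPKM of 7 Shisa genes taken by each gene, in percent, per testis library. The *Shisa3* share is 72.2 to 74.9% in WT and 54.8 to 64.2% in MLXKO, and the *Shisa5* share is 9.0 to 12.4% in WT and 17.5 to 21.5% in MLXKO.

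Other proteins with a Shisa-like build were taken from a list of 8 related genes. Of these, 5 were tested and 1 passed, where 45.4% of all genes did. *Wbp1l*, a WW-domain binding protein gene, passed as higher, with 668, 559 and 684 counts in WT against 843, 1000 and 980 in MLXKO (LFC 0.46, SE 0.09, adjusted p = 0.0014). *Cyyr1* (LFC -0.43, adjusted p = 0.0907), *Vopp1* (0.17, adjusted p = 0.37), *Wbp1* (0.08, adjusted p = 0.531) and *Shisal1*, listed as *1810041L15Rik* (0.09, adjusted p = 0.799), did not pass. The LFC of *1810041L15Rik* turned to -0.10 without KO2. *Fam159a* and *Fam159b*, the older symbols of *Shisal2a* and *Shisal2b*, and *Tmem92* had too few counts to be tested.

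For each member that passed or was chosen, the 5 genes most like it were found by the root mean square (RMS) difference of centered log2 CPM over the 6 libraries. The measure includes the difference between genotypes, so genes with a like LFC are near by construction. The nearest to *Shisa4* were *Aqp5*, a water channel (RMS 0.142), *Lrg1* and *Serpina3n*, which encode secreted acute-phase proteins (0.205 and 0.215), *Gfap*, an intermediate filament gene of glia (0.269), and *Scn3b*, a sodium channel subunit (0.441). *Aqp5* had 8, 6 and 10 counts in WT against 156, 204 and 166 in MLXKO. *Serpina3n* had 32, 31 and 46 counts in WT against 676, 915 and 992 in MLXKO, so both were far above WT in each MLXKO library.

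The nearest genes to *Shisa5* were *Pla2g15*, a lysosomal phospholipase (RMS 0.056), *Ids*, the lysosomal iduronate sulfatase (0.057), *Esr1*, the estrogen receptor alpha (0.064), *Papss2* (0.069) and *Zcchc18* (0.071). *Pla2g15* had 63, 66 and 68 counts in WT against 129, 124 and 134 in MLXKO. Among the nearest to *Shisa6* were *Tap1*, an antigen peptide transporter (RMS 0.166), *Havcr2* and *Fcgr1*, receptors of immune cells (0.184 and 0.197), and *Mmp9*, a gelatinase (0.198). *Tap1* had 21, 24 and 22 counts in WT against 113, 54 and 54 in MLXKO, with KO1 highest, as for *Shisa6* (LFC of *Tap1* 1.60, or 1.19 without KO1).

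The nearest to *Shisa3* were *Tmem218* (RMS 0.014), *Rpgrip1* (0.033), *Prss43* (0.034), *Adam1a* (0.037) and *Camk2n1* (0.038). *Adam1a*, a fertilin-type ADAM gene of male germ cells, had 4353, 3672 and 3958 counts in WT against 4086, 3182 and 3216 in MLXKO, again with KO1 nearest to WT. The nearest to *Shisa2* were *L1td1* (RMS 0.043), *Pkp3* (0.086), *Adcy2* (0.089), *Rbm20* (0.09) and *Rasl10b* (0.098). *L1td1* had 53, 57 and 66 counts in WT against 50, 34 and 38 in MLXKO.

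The nearest protein-coding genes on each side were 16 for the 8 members, of which 14 were tested: 5 passed as higher, 3 as lower and 6 did not pass, where 24.8% of all genes passed as higher and 20.6% as lower. *Pfkfb4*, a regulator of glycolysis 6.3 kb from *Shisa5*, fell by 0.45 on the log2 scale (adjusted p = 7.1e-05) while *Shisa5* rose. *Trex1*, a DNA exonuclease 0.1 kb from *Shisa5*, had an LFC of 0.46 (adjusted p = 0.0863), and it passed without KO1 (LFC 0.59, adjusted p = 0.0348) and with library size alone (0.60, adjusted p = 0.0388). *Bend4*, 179.8 kb from *Shisa3*, rose by an LFC of 0.52 (adjusted p = 0.0011) while *Shisa3* fell. *Srebf2*, which lies 0.8 kb from *Shisa8* and encodes a regulator of cholesterol synthesis, rose by an LFC of 0.28 (adjusted p = 0.00329), and it was lost in DESeq2 with the pair as a block (adjusted p = 0.0652).

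Markers of other cells that whole testes can hold were counted across all lists, beside the 24.8% of all genes that passed as higher and 20.6% as lower. Of the tested markers, 7 of 9 for spermatocytes and 7 of 8 for round spermatids passed as lower, with summed levels of 1743 to 1797 and 1339 to 1391 CPM in WT and 1525 to 1600 and 1148 to 1206 CPM in MLXKO. Endothelial markers passed as higher for 2 of 7 and peritubular myoid and smooth muscle markers as higher for 4 of 6 and lower for 1. The endothelial sum was 36.5 to 45.6 CPM in WT and 52.6 to 59.1 CPM in MLXKO. The myoid sum, 310 to 369 CPM in WT and 309 to 325 CPM in MLXKO, was mostly *Actg2*, an enteric smooth muscle actin and the 1 gene lower, at 238 to 282 CPM in WT and 194 to 217 CPM in MLXKO. The other 5 genes, set apart after their values were seen, summed to 72.1 to 87.1 CPM in WT and 108 to 119 CPM in MLXKO, without overlap. Skeletal muscle markers summed to 2.35 to 3.67 CPM in WT and 1.96 to 2.89 CPM in MLXKO, with *Myh1* lower and *Tnnt3* and *Tnni2* at 3 counts or fewer.

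Rete testis and epididymal markers summed to 5.17 to 5.85 CPM in WT and 5.42 to 6.30 CPM in MLXKO. Of these, *Cldn4*, a claudin of duct epithelium, had 4, 3 and 4 counts in WT against 43, 43 and 27 in MLXKO (LFC 3.22), while *Rnase10* fell and *Lcn5* was at the floor. The 2 tested genes of this list thus went opposite ways, with an LFC of -0.68 for *Rnase10* (adjusted p = 0.00991). *Cldn4* exceeded 0.55 CPM in 0 WT libraries and 3 MLXKO libraries, which limits its call. The summed list overlapped between genotypes, and *Rnase10*, at 3.95 to 4.96 CPM in WT, made up most of its WT level. The part of these cells in the *Shisa4* difference was not tested.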

How the data were processed

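The series holds 22 samples, of which the 6 testis RNA-seq libraries were used here. The authors deposited 1 table with raw counts, which are whole numbers for each gene and library, after alignment to mm10 with TopHat. The counting tool, gene annotation and strand setting are not given in the sources used here. The authors also deposited their own comparison in the same table (a mean signal, log2 fold changes with SE, a test score, a p-value and its adjusted value), and those columns were not used. Of 17933 rows, 2 repeated another row and were used once. Symbols were matched to RefSeq as current (17248) or older (656) names, and 27 were not matched. Exon length was found for 99.9% of symbols.

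The test was edgeR 4.0.16 in R 4.3.3: filter on low counts with a minimum of 10, TMM normalization, and a two-sided quasi-likelihood test in a model of genotype alone. SE is the unshrunk log2 coefficient divided by the square root of F. CPM used TMM-adjusted library sizes, and RPKM was computed from CPM and exon length. The script was tested on simulated data. Alternatives were DESeq2 1.42.0, other scalings, no filter or a filter of 1 CPM in 3 libraries, the littermate pair as a block, and leaving out each library.

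The pairing comes from the sample titles and from the littermates named in the methods. Deviations from the group means correlated at 0.145, 0.0363 and 0.121 for same-numbered libraries, and at -0.123 to 0.0330 otherwise. No libraries agreed within sampling noise.

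Promoter windows were RefSeq GRCm38.p6 sequences, found for 6 of the 8 members, and motifs were searched on both strands. *Shisa6* and *Shisa9* have no entry. Intervals on counts cover counting error only, and reads carry no molecular identifiers. Named genes are the members, the Shisa-like list, up to 4 members of each other list with the lowest adjusted p, the flanking protein-coding genes, the 5 genes nearest to each called member, *Mlx*, markers at the floor, and any list gene a sentence needs. One gene near *Shisa6* by this rule is not reported here. The members and all 18 lists (6 of pathways, 12 of cell type markers) were chosen with earlier results of these data known.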

Additional observations from a re-analysis of the deposited data

How the results depend on the processing

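*Shisa5*, *Shisa6* and *Shisa7* kept direction and side of the threshold in all 14 alternative fits, and *Shisa9* in 13, since the filter of 1 CPM removed it. Leaving out 1 library gave a fitted LFC of 4.88 to 5.46 for *Shisa4*, a description since the gene was chosen by this difference, and LFC ranges of 0.82 to 1.04 for *Shisa5*, 1.44 to 1.93 for *Shisa6*, 0.00 to 0.21 for *Shisa7*, -1.0 to -0.32 for *Shisa9*, -0.80 to -0.52 for *Shisa2* and -0.43 to -0.23 for *Shisa3*. The last 2 lost the threshold with library size alone (*Shisa2* -0.49, *Shisa3* -0.17). That scaling moved the median LFC of all genes by 0.14, and relative to that median *Shisa2* was at -0.65 and *Shisa3* at -0.33. It turned *Ipo9* to 0.08, and *1810041L15Rik* turned to -0.10 without KO2 (-0.10 to 0.25 with 1 library left out).

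With the littermate pair as a block in edgeR, LFC was -0.62 for *Shisa2* (adjusted p = 0.0227), -0.31 for *Shisa3* (0.00182), 0.93 for *Shisa5* and 1.70 for *Shisa6*, and no member's call changed. In DESeq2 with the block, *Shisa2* was lost (LFC -0.66, adjusted p = 0.138). The 6649 genes past the threshold became 4604 with that block (2249 higher, 2355 lower), 6611 with library size alone (5343 higher, 1268 lower, against 3634 and 3015) and 5130 to 7395 with 1 library left out.

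The p53 list had 15 past the threshold, 9 with the DESeq2 block (8 higher, 1 lower) and 9 to 17 with 1 library left out. The AMPA list had 2 with library size alone. The GABA-A list had 1 there, 0 in DESeq2 with and without the block, and 0 to 3 with 1 library left out. With the longest transcript, RPKM was 1.23 (*Shisa2*), 16.9 (*Shisa3*), 3.17 (*Shisa5*) and 0.172 (*Shisa9*) in WT, and 13.7 (*Shisa3*), 1.62 (*Shisa4*) and 5.99 (*Shisa5*) in MLXKO. *Shisa3* was 12.7 in WT with library size alone. Among 40 named genes outside the family, 501 of 560 fits kept the call, 50 lost it and 7 gained it. The cause was not tested. WT counts of 1 or 2 limit *Shisa4*, and counts of 3 to 15 limit *Shisa9*.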
